A study of Mus musculus with 2 samples.

Results

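Connexin genes were read in the lens of newborn mice, on 1 control array and on 1 array for lens in which the forkhead transcription factor gene Foxp1 was labelled as knocked out. The 9 genes were Gja1, Gja3, Gja4, Gja5, Gjb1, Gjb2, Gjb6, Gjc1 and Gjd2, of 20655 genes named on the arrays. They were chosen by name, by matching the RefSeq transcript of each probe to a gene symbol, and every probe of each gene was kept. All 9 genes were found, with 10 probes and 19 spots. The control was labelled as wild-type and as a litter mate, and the other sample as Foxp1 KO, both at postnatal day 0 on a C57BL/6 mixed background. The treatment text of both samples gives Foxp1-flox/flox and Pax6-L-Cre, so the genotype and source labels were used to tell the arrays apart. The labels do not say which cells the Pax6-L-Cre driver reaches beside the lens, nor whether lenses of several animals were pooled.

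Connexins are membrane proteins that assemble into rings, and rings of adjacent cells dock to form gap junction channels. Ions, metabolites and second messengers pass through these channels. The lens has no blood vessels of its own, and its fibre cells depend on gap junctions for supply from the surface. Gja1 (Cx43) is the connexin classically assigned to the lens epithelium, and Gja3 (Cx46) belongs to the differentiated fibres. The other members are known mainly from other tissues, among them vessel wall, liver, inner ear and neurons.

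With 1 array per genotype there was no replicate and no test, so every difference below is a difference between these arrays. Values are processed signals in scanner units, and differences are log2 of knockout over control after each array was scaled by its 75th percentile (283 for control and 279.9 for knockout). Precision is limited by the number of arrays. Error is given as the SD of 1 spot difference, taken from probes printed at least 5 times, which covers spot noise and not animals, dissection or labelling. Levels of different genes were not compared, since each probe has its own brightness. Foxp1 read lower on the knockout array with its 3 probes, by differences of -1.82, -1.84 and -1.33. The 7 lens fibre markers, crystallins and fibre membrane proteins among them, were all well above background and lay between -0.25 and 0.04.

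Of the 9 connexins, 8 were measured, meaning well above background on both arrays with at least 1 probe. Among these 8 genes, 4 read higher and 4 lower on the knockout array, and their median difference was 0.02, against 0.01 for all 14254 measured genes. Gja5 counts as higher here by its one measured probe, although its other probe read lower. With Gja5 as the mean of both probes 3 genes read higher and 5 lower, with a median of -0.19, and without Gja5 the median was -0.17. At least 2-fold lower was 1 member, Gjb1, against 5.86% of all measured genes, and 0 members were at least 2-fold higher, against 1.02%. Loess scaling gave 294 lower and 389 higher genes in place of 835 and 146, and with it 2 members, Gja5 and Gjb2, were at least 2-fold higher, or only Gjb2 with both Gja5 probes averaged. At a limit of 1.5-fold, 2 members were lower (Gjb1 and Gja1), against 12.8% of all genes, and 2 were higher (Gjb2 and Gja5), against 4.01%. With both Gja5 probes averaged the tally was 3 lower and 1 higher. Dim signals read lower on the knockout array in general. When the measured genes were put into 10 signal classes of equal size, 30.2% of genes in the dimmest class were at least 2-fold lower, against 1.33% in the class that holds Gja1. Each member was therefore set beside the genes of its own signal class.

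**Figure D1:**
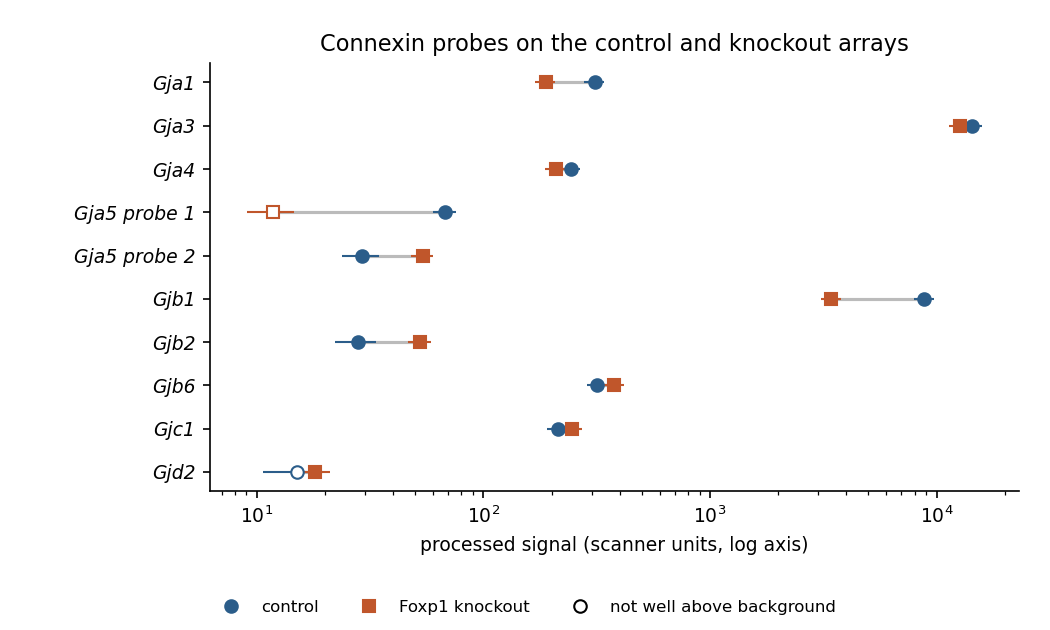
Processed signal (scanner units, log axis) of the 10 connexin probes on the control array (circles) and the Foxp1 knockout array (squares); bars are the error that the scanner software gives for a spot, and open symbols are not well above background. Gjb1 reads 8837 in control and 3433 in knockout lens and Gja1 310 and 188, whereas the Gja3 symbols lie next to each other and the Gja5 probes move in opposite directions.

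Gja1 forms the channels that couple epithelial cells to each other. Its probe was printed as 10 spots per array, so it is the member with the most readings. On the control array its spots read from 234 to 348 with a median of 318. On the knockout array they read from 169 to 224 with a median of 187. No knockout spot reached the lowest control spot, and the difference was below 0 for each of the 10 spots, from -0.87 to -0.31. The mean difference was -0.70 ± 0.18 (SD, n = 10 spots of 1 array each), a 1.62-fold lower signal. Spike-in RNAs on either side of its brightness, at control signals of 283 and 579, differed by -0.12 and -0.24. Among 273 gene probes printed at least 5 times and measured on both arrays, 14 were as low or lower, Gja1 included, and their median was 0.08. Among the 1425 genes of its signal class, 43 (3.02%) read as low or lower. Gja1 lay below 0 under 9 of 10 other ways of processing and read 0.38 after scaling by array medians, which raised the median of all genes to 1.08. Changing only the filter, the choice of probe or the outlier spots could not move Gja1, as its 1 probe had no outlier spots. Relative to the median of all genes Gja1 was below 0 under all 10, between -0.78 and -0.54. Scaling by 1 factor per array cannot change that relative value.

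**Figure D2:**
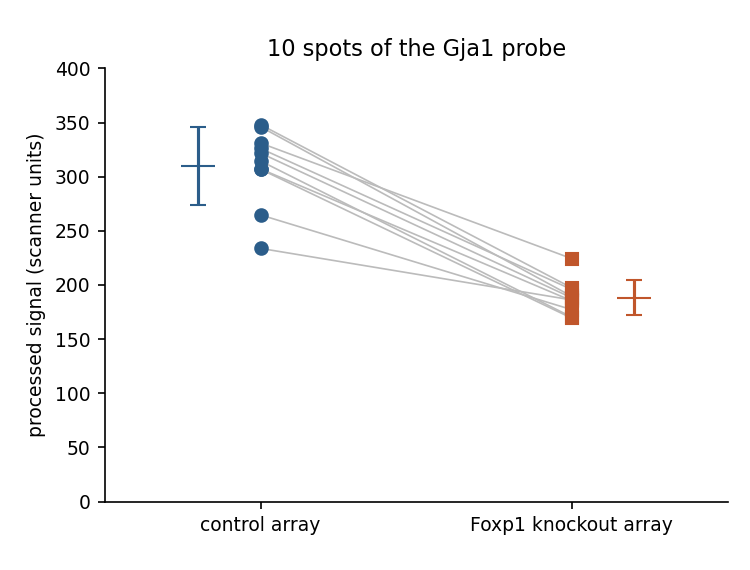
Processed signal (scanner units) of the 10 spots of the Gja1 probe on each array, with lines joining the same spot position and bars giving the mean ± SD over spots. The control spots lie between 234 and 348 and the knockout spots between 169 and 224, so the arrays do not overlap.

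Gja1 is also made outside the lens, for example in the ciliary epithelium that lies beside it. Of the pigment and ciliary epithelium markers, 6 of 7 were measured and all 6 read below 0, with a median of -0.39. The summed signal of all 7 was 5517 in control and 4964 in knockout lens. Rpe65, which defines the retinal pigment layer, was above background on neither array. The lens epithelium markers had a median of 0.01, with Foxe3 at 0.34, Cdh1 at 0.12, Pax6 at -0.10 and Clu at -0.39. Their summed signal was 99044 in control and 76357 in knockout lens, most of it Clu at 95481 and 72394. Whether either group of cells has a part in the Gja1 reading was not tested, and fewer cells of a type and less RNA per cell cannot be told apart in whole lens.

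Gja3, whose channels join lens fibres, read 14385 (control) and 12635 (knockout). The difference was -0.17 with a spot SD of 0.08, and 111 of the 1426 genes in the brightest signal class were as low or lower. It turned to 0.91 with array medians, but relative to the median of all genes it lay between -0.27 and -0.01 under the 10 other ways of processing. The difference lay within the error of 0.20 that the scanner software gives for this spot pair.

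Gjb1 (Cx32), known as a gap junction protein of liver and of myelinating Schwann cells, showed the largest difference among the measured probes of the members under the main scaling. Under loess and quantile normalization Gjb2 and the measured Gja5 probe differed by more, in the other direction. Its single probe read 8837 in control lens and 3433 in knockout lens. That is a difference of -1.35, or 2.55-fold lower. The spot SD in this range of signal was 0.08, and the error of the scanner software was 0.20. In the brightest signal class 0.421% of genes were at least 2-fold lower and 0.351% at least 2-fold higher. Gjb1 was among the 4 lowest of the 1426 genes in that class. Spike-in RNAs near its brightness, at control signals of 1539 and 9781, differed by -0.04 and -0.02. Gjb1 lay 1.18 below Gja3 within the same pair of arrays, a gap that no scaling of whole arrays by 1 factor can change. Gjb1 remained below 0 under all 10 other ways of processing, from -1.48 to -0.27, and was at least 2-fold lower under 9 of them. Those that change only the filter, the choice of probe or the outlier spots return -1.35 by design, as Gjb1 has 1 probe. Array medians gave -0.27, which is -1.36 relative to the median of all genes, a value that 1 factor per array cannot change. In the GRCm38.p6 annotation Gjb1 lies on chromosome X, and the nearest measured coding genes on either side, Med12 and Zmym3, read 0.28 and -0.06.

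Because the deleted gene encodes a forkhead factor, the 250 bases before each annotated start were searched for the forkhead core TGTTTA on both strands, together with the longer TGTTTAC that contains it. RefSeq promoter sequences (GRCm38.p6) were matched for 8 of the 9 members, with 12 starts in all. The core was present in 1 of the 12 windows, against 12.03% of 32851 windows of all genes, and the longer motif in 0 of 12, against 3.17%. The one match belonged to the second of 4 starts of Gjb1, 85 bases before it. It is printed with its flanks, chrX:101377138-101377167 on the plus strand, with the core in capitals.
Gjb1 second start, forkhead core: agggatcaatctTGTTTAatgattgtgtgt

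The windows before the first start of Gjb1 (chrX:101376126-101376375, plus strand), of Gja1 (chr10:56377050-56377299, plus strand) and of Gja3 (chr14:57058031-57058280, minus strand) are shown because Gjb1 was the member past 2-fold, Gja1 had the most spots and Gja3 is the fibre connexin. None of these 3 windows holds the core, so all letters are in lower case.
Gjb1: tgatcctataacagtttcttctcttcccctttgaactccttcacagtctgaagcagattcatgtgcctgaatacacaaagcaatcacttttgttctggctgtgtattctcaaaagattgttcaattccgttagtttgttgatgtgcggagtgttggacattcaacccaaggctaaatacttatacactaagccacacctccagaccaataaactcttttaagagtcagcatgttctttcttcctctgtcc
Gja1: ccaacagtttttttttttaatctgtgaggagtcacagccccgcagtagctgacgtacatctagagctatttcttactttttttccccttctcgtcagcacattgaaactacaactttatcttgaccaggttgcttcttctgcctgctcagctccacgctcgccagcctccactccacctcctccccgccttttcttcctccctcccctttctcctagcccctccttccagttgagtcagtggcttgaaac
Gja3: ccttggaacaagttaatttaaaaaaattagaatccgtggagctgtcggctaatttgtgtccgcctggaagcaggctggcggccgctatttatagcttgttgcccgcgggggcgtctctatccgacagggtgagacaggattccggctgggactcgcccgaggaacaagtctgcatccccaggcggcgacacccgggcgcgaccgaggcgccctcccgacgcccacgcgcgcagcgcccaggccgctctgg

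These windows differ in base content. The Gjb1 window holds 2 CpG pairs and 40.4% G and C, the Gja1 window 6 pairs and 50%, and the Gja3 window 26 pairs and 62.8%. The median over all windows was 6 pairs and 52.4%. A match or its absence describes these letters only, and no binding was measured.

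Gjb6 and Gjc1 read slightly higher on the knockout array. Gjb6 (Cx30), a connexin of inner ear supporting cells and astrocytes, read 319 and 377, a difference of 0.26. Its spot SD was 0.12 and the error of the scanner software 0.21. Gjc1 (Cx45), known from the cardiac conduction system and smooth muscle, read 214 and 247, a difference of 0.22. Its spot SD was 0.16 and the error of the scanner software 0.21. Both lay above 0 under all 10 other ways of processing, although Gjc1 was only 0.07 without background correction. Those that change only the filter, the choice of probe or the outlier spots could not move either gene. Of the pericyte and mesenchyme markers, 4 of 6 were measured, all 4 read above 0, and 2 were at least 2-fold higher. Their median was 0.55. Col1a1 read 1.05 and Col3a1 1.51. The summed signal of all 6, measured or not, was 423 in control and 704 in knockout lens. That sum includes the 2 not measured on both arrays, Dcn and Lum. They read 22.2 and 4.34 in control against 158 and 48.9 in knockout lens. The part of such cells in the readings of Gjc1, Gja4 and Gja5 was not tested. The values of Gjb6 and Gjc1 were common among genes of their signal class, since 272 and 316 of 1425 read as high or higher. The astrocyte markers Gfap, Aqp4 and Slc1a3 read -0.57, 0.53 and 0.61, and their part in the Gjb6 reading was not tested.

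Gja4 and Gja5 are connexins of vessel endothelium, and newborn lens is still wrapped by hyaloid vessels. Gja4 (Cx37) read 243 in control and 209 in knockout lens. Its difference was -0.20, with a spot SD of 0.16, and lay within the error of 0.21 that the scanner software gives. It was matched or exceeded downward by 332 of the 1425 genes of its signal class. With array medians it turned to 0.88. Relative to the median of all genes it lay between -0.29 and -0.04 under the 10 other ways of processing. Gja5 (Cx40) had 2 probes that went opposite ways. The probe that was brighter on the control array read 67.9 there and 11.8 on the knockout array, where it was not well above background. It was at least 5.55-fold lower, taking as the knockout value 12.1, the dimmest signal that counted as well above background there. Spike-in RNAs at control signals of 55.2 and 86.7 differed by -2.99 and -1.19. The other Gja5 probe read 29.2 and 54.1 and was the measured one, with a difference of 0.91 and a spot SD of 0.28. Spike-in RNAs on either side of its control signal, at 19.9 and 55.2, differed by -2.23 and -2.99. Both Gja5 probes carry the same transcript accession, so the array gives no single direction for Gja5. Without the filter on background the mean of both Gja5 probes was -0.80.

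All 7 endothelial markers were measured, with 2 above and 5 below 0, a median of -0.09 and summed signals of 3525 and 3257. Tek and Emcn stood at the ends of the list, at 0.86 and -1.12. Their part in the readings of Gja4 and Gja5 was not tested.

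Gjb2 (Cx26), an epithelial connexin best known from the cochlea, read 27.9 in control and 52.5 in knockout lens. The difference was 0.92 with a spot SD of 0.28. Spike-in RNAs at control signals of 19.9 and 55.2 differed by -2.23 and -2.99. In the dimmest signal class the median difference was -0.61, and 9 of 1426 genes read as high as Gjb2 or higher, Gjb2 included. The measured Gja5 probe lay in the same class, where 10 genes read as high or higher. That class holds only genes above background on both arrays, and the dimmest passing signal was 20.6 in control and 12.1 in knockout. Genes below 20.6 in control that read higher in knockout were left out. The filter can thus lower the class median and make high readings rarer, which limits both ranks. The size for Gjb2 and the measured Gja5 probe depended on how dim signals were treated. Gjb2 was 1.98 with quantile normalization and 1.64 with loess, but 0.39 after normexp correction and 0.36 without background correction, both added after the data were seen. Gjb2, Gjb6 and Gja3 are consecutive coding genes on chromosome 14 in the GRCm38.p6 annotation, and their differences of 0.92, 0.26 and -0.17 did not run together. The surface and corneal epithelium markers, of which 4 of 5 were measured, had 1 above and 3 below 0 and a median of -0.24. The summed signals of all 5 were 1768 in control and 1887 in knockout lens. Most of each sum was Trp63, the 1 above 0, at 1587 and 1753.

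Gjd2 (cx36), the connexin of neuronal electrical synapses, was the only member without a measured probe. It was not well above background on the control array, at 15.1, and read 18.03 on the knockout array. No fold is given, because the knockout signal lay below 20.6, the dimmest signal that passed as above background in control. All 8 retina and neuron markers were measured and read above 0, with a median of 0.67 and summed signals of 6049 and 8450. Their part in the Gjd2 reading was not tested.

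**Figure D3:**
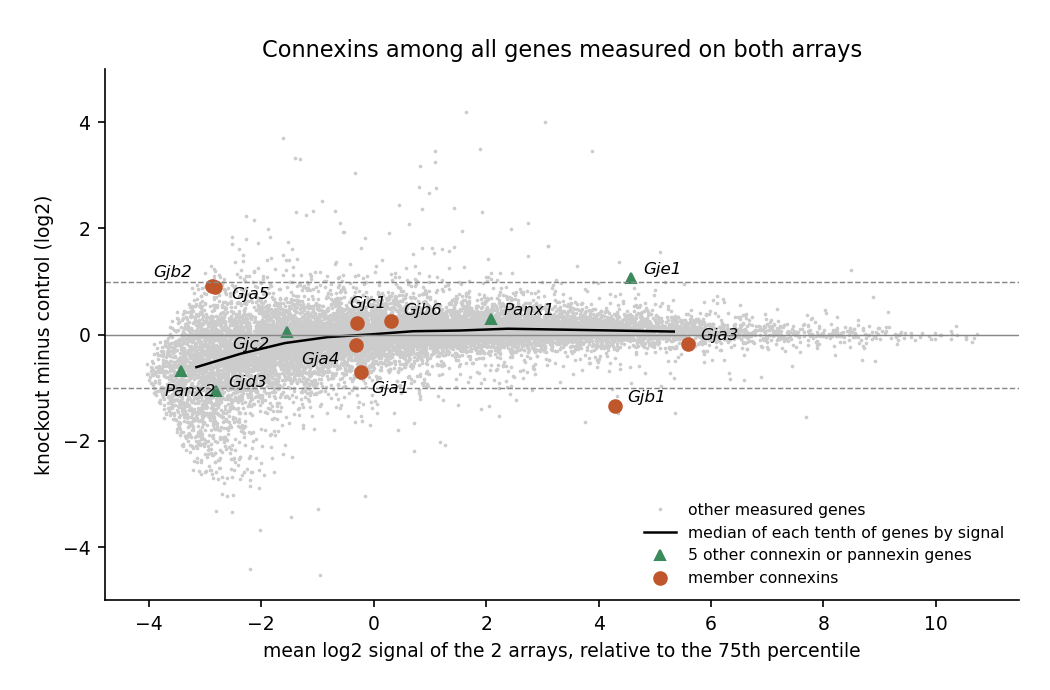
Difference between the arrays (knockout minus control, log2) against mean log2 signal relative to the 75th percentile, for all genes measured on both arrays (grey), the 8 measured member connexins (circles) and 5 other connexin or pannexin genes (triangles). The black line joins the medians of the 10 signal classes, and dashed lines mark 2-fold. Gjb1 at -1.35 and Gje1 at 1.06 lie outside the narrow spread of bright genes, whereas Gjb2 and Gja5 lie above the median of -0.61 of the dimmest class.

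Outside these 9 genes, a list of 14 other connexins and pannexins was read in the same way. Of these, 6 were measured, 1 was at least 2-fold higher, 1 at least 2-fold lower and 4 lay between, with a median of 0.17, beside 1.02% higher and 5.86% lower over all genes. Both calls were lost with loess and with quantile normalization, and without the filter on background 5 were lower and 2 higher, with a median of -0.70. Another 7 were above background on neither array. Gje1 (Cx23), a connexin of the lens in mice, read 4668 in control and 9662 in knockout lens, a difference of 1.06 with a spot SD of 0.08. It was among the 5 highest of the 1426 genes in the brightest signal class, against the 0.351% given above for 2-fold higher genes. Gje1 lay 1.24 above Gja3 and 2.41 above Gjb1 in the same pair of arrays. Its difference was just under 2-fold with loess and quantile normalization, both at 0.99, and at 0.94 when the percentile came from measured probes alone. Gjd3 read 58.2 and 27.6, a difference of -1.06 with a spot SD of 0.28. Spike-in RNAs on either side of it, at control signals of 55.2 and 86.7, differed by -2.99 and -1.19. Gjd3 was -0.38 with loess, -0.11 with quantile normalization and 0.0149 with array medians. In its signal class 387 of the 1426 genes read as low or lower. The pannexin genes, which encode channel proteins related in shape to connexins, read 0.29 for Panx1 and -0.69 for the measured probe of Panx2. In the signal class of Panx2, 655 of 1426 genes read as low or lower. The other Panx2 probe read 121 in control and 17.7 in knockout lens, where it was not well above background, at least 6.79-fold lower. Spike-in RNAs at control signals of 86.7 and 283 differed by -1.19 and -0.12.

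Genes whose proteins bind, scaffold or sit beside connexins formed a further list of 25, of which 22 were measured. The list had 16 members above and 6 below 0, beside 7257 and 6997 of all 14254 genes. Its median was 0.11 against 0.01 for all genes. Most of the 22 lay in signal classes 6 to 10, counted from the dimmest, whose own medians ran from 0.06 to 0.11. In the list 1 was at least 2-fold lower (5.86% of all genes) and 0 were at least 2-fold higher (1.02%). The one past 2-fold was Src, a tyrosine kinase that phosphorylates Gja1 protein, which read 70.4 and 17.0, a dim reading with a difference of -2.04 and a spot SD of 0.28. Spike-in RNAs at 55.2 and 86.7 in control, on either side of Src, differed by -2.99 and -1.19. Src was under 2-fold after normexp correction (-0.79), without background correction (-0.98) and with array medians (-0.96), and was not among the brighter probes. Ctnna1, alpha-catenin of adherens junctions, was bright and read 16521 and 26100, a difference of 0.67 with a spot SD of 0.08. The 3 unmeasured partners were Cav1 and Ccn3, above background in control alone at 42.9 and 22.2, and Ocln, on neither array.

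**Figure D4:**
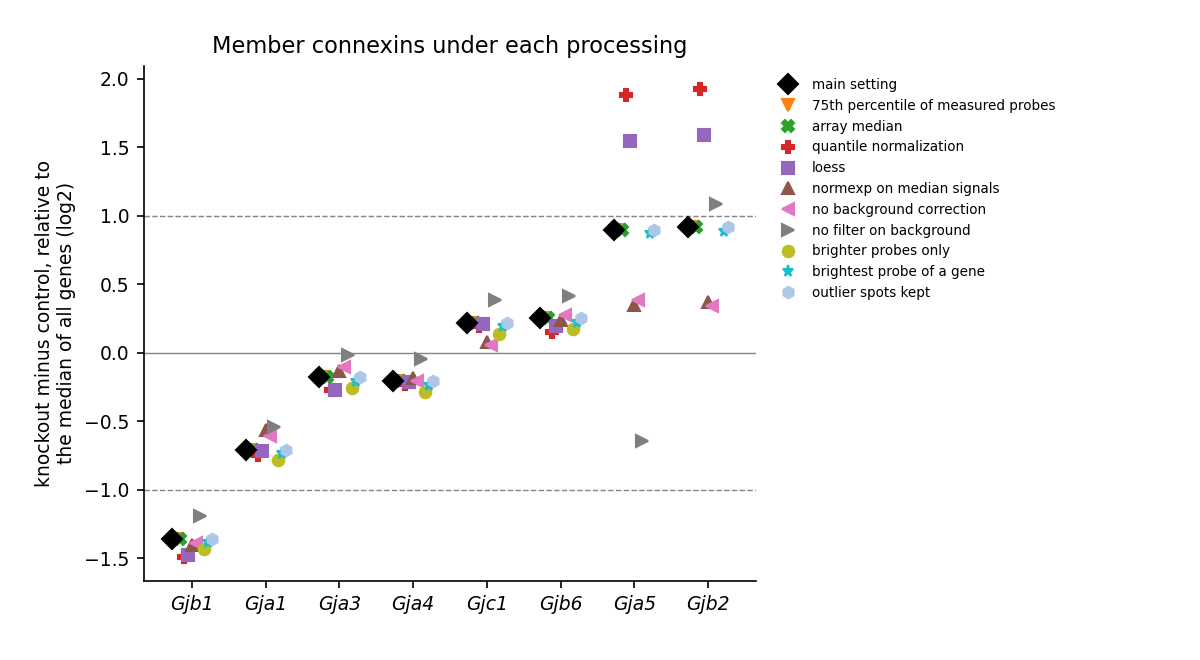
Difference of the 8 measured connexins (knockout minus control, log2) after subtracting the median of all genes, under the main setting and 10 other ways of processing; dashed lines mark 2-fold. Gjb1 and Gja1 stay below 0 in each, between -1.49 and -1.19 and between -0.78 and -0.54, while Gja5 and Gjb2 spread from -0.64 to 1.89 and from 0.34 to 1.92. Scaling by 1 factor per array cannot move these values. For a gene with 1 probe, settings on filters, probe choice or outlier spots move only the median that is subtracted. Gja5 and Gjb2 were not among the brighter probes, so they have 9 other ways of processing. The -0.64 of Gja5 is the mean of both its probes, without the filter on background.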

How the data were processed

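Total RNA of newborn lens was hybridised to Agilent 1-colour arrays, 1 per genotype. The deposited intensity values are spot signals from Agilent Feature Extraction 10.7.3.1, background-subtracted by that software, with a probe layout annotated to mm9, per the file headers. No scaling between arrays is recorded there. The deposited yes or no flags and the spot error come from the same software. Control spots were left out, and log2 signals were scaled by the 75th percentile of all other spots, outlier spots included. Spots flagged as outliers were left out of the readings, and the spots of each probe averaged. A measured probe had over 50% of its spots above background in both samples, by the flag for a signal well above it. Of 55655 probes, 27225 matched a gene of the GRCm38.p6 RefSeq table by unversioned accession, which gave names, chromosomes and gene order. Promoter positions are those of the RefSeq promoter table of the same build. Signal classes are 10 equal groups of the measured genes by mean signal. The members and lists were chosen with earlier results of these data known. The text names each member, Foxp1, and of each list the genes past 2-fold and up to 4 with the largest difference, some of which are not reported here; markers, neighbouring genes and pairs beyond this were added. Steps were tested on simulated data that had spot noise alone and changes only in genes above the median signal. That test does not cover dim readings, a shift with signal or background limits that differ between arrays. Python 3.11.15 was used, and no p-value could be given.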

Additional observations from a re-analysis of the deposited data

How the results depend on the processing

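No paired analysis was possible because each genotype had 1 array. Alternatives on the mean spot signal were not run, since the files used here hold median signals, which took their place after the data were seen. Gjb1 read -1.48 with the percentile taken over measured probes and -0.27 with array medians, which left 0 members at least 2-fold lower and placed 4 at least 2-fold higher. Quantile normalization and loess each gave 2 higher members, or 1 with both Gja5 probes averaged, and a 1.5-fold limit gave 2 lower and 2 higher. Gjd3 turned to 0.0149 with array medians. Lower and higher genes numbered 101 and 8724 with array medians, 233 and 774 with quantile normalization, 294 and 389 with loess, 99 and 72 with normexp, 217 and 83 without background correction, 4466 and 293 without the filter on background, 46 and 80 over brighter probes and 1822 and 571 at 1.5-fold. The cause was not tested. Low signal over background limits the readings of Gja5, Gjb2 and Gjd2.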
